A study of Mus musculus with 6 samples.

Results

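The genes described here are 45 mitosis and G2/M genes, those whose transcripts accumulate as a dividing cell passes from G2 phase into mitosis, measured in mouse colonic mucosa. They were chosen by name, each was read from its brightest probe set over all 6 arrays, and 44 of the 45 were tested among 12437 genes in all. Ccnb1, which encodes cyclin B1, has no probe set under that symbol in the probe annotation used here and was not analysed. RNA from the mucosa was labelled and hybridised to Affymetrix 3' expression arrays, 3 from samples labelled p38a knockout and 3 from samples labelled wild type, each with a letter A, B or C. All samples are of strain C57BL/6, all are labelled as untreated, and all carry intestinal epithelial cells as their cell type. The driver of the deletion, the cells it reaches, the part of the gene removed, whether animals were pooled and the age of the mice are each not given in the sources used here. No label states that the replicates of a group are separate mice, so the p-values below measure only how far these samples spread, and that spread may be technical. With 3 arrays a group, the number of arrays limits the precision of every value.

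Mitosis is driven by the kinase Cdk1, which is activated by its cyclin partners, and is completed by ubiquitin-dependent destruction of the cyclins and of securin. Most genes of this programme are held silent in resting cells and are switched on late in the cell cycle by the MuvB complex with B-Myb and FoxM1, which reaches their promoters through a short sequence called the cell cycle homology region, often near boxes bound by the factor NF-Y. In the colon the dividing cells lie in the lower part of the crypts, and cells that move up towards the surface leave the cycle and differentiate. p38a, encoded by Mapk14, is a stress-activated kinase that can restrain proliferation in several tissues.

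The members varied together from array to array, and their promoters are shown for that reason. Of the 45 members, 38 have an entry in the RefSeq promoter table for build GRCm38.p6, which runs from 250 bases before to 50 bases after a gene's start. The stretches below cover 100 bases before to 50 bases after the start, 5′ to 3′ on the gene's strand, with the matches to both motifs in capitals on either strand. One motif is the cell cycle homology region, searched as TTTGAA and, in its less common form, as the palindrome TTCGAA. The other is the NF-Y box, searched as CCAAT, which reads ATTGG when the box lies on the opposite strand. They belong to Ccnb2, a mitotic cyclin (chr9:70421505-70421654, minus strand), Cdk1 (chr10:69352863-69353012, minus strand), Cdc20, which activates the anaphase ubiquitin ligase (chr4:118437294-118437443, minus strand), and Ube2c, the ubiquitin-conjugating enzyme of that ligase (chr2:164769829-164769978, plus strand). Also shown are Plk1, a mitotic kinase (chr7:122159335-122159484, plus strand), Hmmr, a spindle protein (chr11:40733388-40733537, minus strand), and Pttg1, which encodes securin and holds neither motif in this stretch (chr11:43425932-43426081, minus strand). Pttg1 is set beside the others because its signal varied least over the arrays. It does not stand for all members without the motifs, since Birc5, Mad2l1, Nuf2 and Nusap1 hold neither and did vary.
Ccnb2: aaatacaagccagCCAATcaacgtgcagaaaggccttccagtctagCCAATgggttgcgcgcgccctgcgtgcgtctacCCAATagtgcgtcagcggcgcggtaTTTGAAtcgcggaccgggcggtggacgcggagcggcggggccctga
Cdk1: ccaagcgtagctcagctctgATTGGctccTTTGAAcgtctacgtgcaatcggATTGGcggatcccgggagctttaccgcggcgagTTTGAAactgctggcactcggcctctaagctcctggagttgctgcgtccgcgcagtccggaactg
Cdc20: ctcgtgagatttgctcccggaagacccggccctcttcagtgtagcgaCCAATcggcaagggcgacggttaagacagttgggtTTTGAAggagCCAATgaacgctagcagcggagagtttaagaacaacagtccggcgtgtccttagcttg
Ube2c: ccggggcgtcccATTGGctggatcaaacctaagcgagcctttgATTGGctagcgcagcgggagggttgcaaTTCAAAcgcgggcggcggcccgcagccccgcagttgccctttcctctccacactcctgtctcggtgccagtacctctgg
Plk1: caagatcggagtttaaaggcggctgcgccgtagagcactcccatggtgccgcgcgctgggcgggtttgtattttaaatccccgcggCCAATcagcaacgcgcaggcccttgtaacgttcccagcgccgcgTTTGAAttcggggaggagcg
Hmmr: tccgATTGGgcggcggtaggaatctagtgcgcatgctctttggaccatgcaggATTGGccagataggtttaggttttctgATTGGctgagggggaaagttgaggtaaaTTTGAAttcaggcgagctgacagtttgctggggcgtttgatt
Pttg1: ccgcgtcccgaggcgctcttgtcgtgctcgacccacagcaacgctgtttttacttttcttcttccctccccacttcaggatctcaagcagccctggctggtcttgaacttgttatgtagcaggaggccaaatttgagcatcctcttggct
The homology region letters are at 1 place in the stretches of Ccnb2, Cdc20, Ube2c, Plk1 and Hmmr and at 2 places in that of Cdk1. In Ube2c they lie on the opposite strand and read TTCAAA. NF-Y box letters are at 3 places in Ccnb2 and Hmmr, at 2 in Cdk1, Cdc20 and Ube2c, and at 1 in Plk1.

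Over the whole 300 bases, read on both strands, 29 of the 38 member promoters (76.3%) hold the homology region letters, against 21.7% of 27025 genes in the promoter table and 16.6% of the 10041 tested genes found in it. NF-Y box letters are in 30 of 38 (78.9%), against 41.1% of the table and 42.5% of the tested genes. Both motifs are in 26 members (68.4%), against 8.61% of the table. A match is a description of the letters, and matches of the 2 motifs were counted separately even where they would share a base. The homology region matches lay close to the start, with 31 of 38 within the printed stretch and 20 of 38 centred at the start or after it. The box matches lay mostly ahead of the start, with 5 of 71 centred at or after it. Mki67, Top2a, Ccnb2, Cdk1, Plk1, Cdc20, Ube2c and Hmmr hold both motifs in their 300 bases, and Birc5, Mad2l1, Nuf2, Nusap1 and Pttg1 hold neither.

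**Figure D1:**
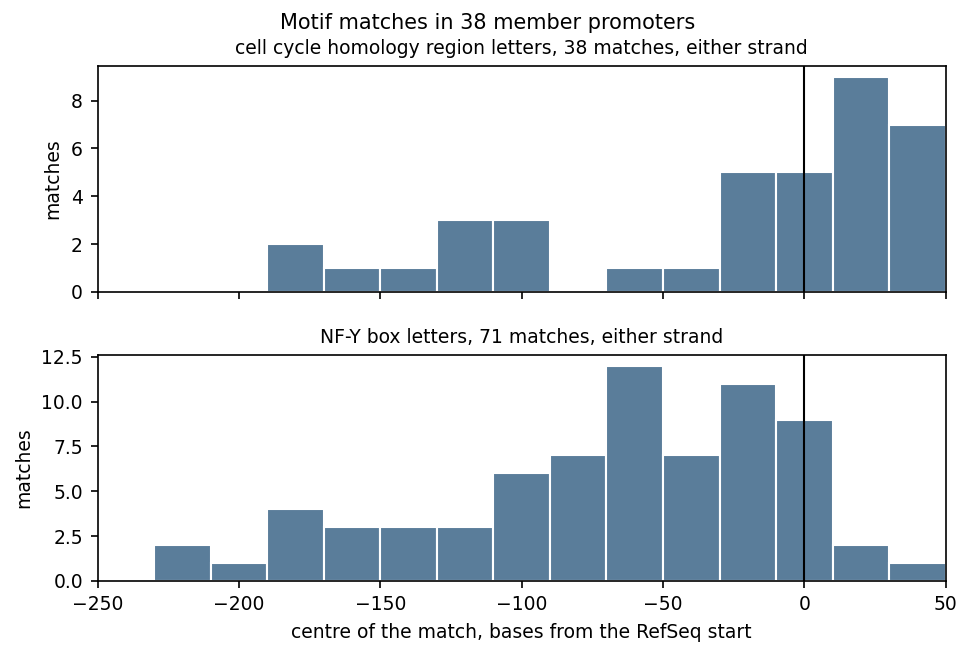
Number of motif matches (vertical axis) by distance in bases of the centre of the match from the RefSeq start (horizontal axis), for the 38 member promoters in the table, matches on either strand, bins of 20 bases, the first listed start of each gene. Of 38 homology region matches 20 are centred at or after the start, whereas of 71 NF-Y box matches 5 are.

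Signals are given as log2(signal + 16) after quantile normalization, which gives every array the same distribution, and differences are log2 differences on that scale, which understate the change of dim genes. On the signals as deposited the mean after trimming 2% from each end lay between 192 and 222 on the arrays labelled knockout and between 117 and 188 on those labelled wild type. The Gapdh control ratio (signal at the 3' end over signal at the 5' end), which goes up as RNA breaks down, was 0.859 to 0.954 on the arrays labelled knockout, 0.989 and 1.1 on wild type B and A, and 1.45 on wild type C. Wild type C therefore stood apart, with the lowest trimmed mean and the highest ratio, and 32.8% of all tested genes had their lowest value on it and 30.3% their highest. Mapk14, the gene named in the labels, was not lower on the arrays labelled knockout: it read 9.72, 9.91 and 9.73 there and 9.31, 9.44 and 9.37 on wild type, a difference of 0.41 (SE 0.14, limma adjusted p = 0.902). The exact two-sided permutation test gave p = 0.1, the smallest value that 3 arrays against 3 can give. By its brightest probe set, the only one read here, the targeted gene thus goes against the label. Other probe sets of Mapk14, and whether this one lies in the deleted part, were not examined. Every direction below is therefore between arrays as labelled. T cell markers stood with wild type C as well: all 5 tested of 9 listed (Cd3e among them) had their highest value there.

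The members were on average somewhat higher on the arrays labelled knockout, but no member passed the test and the difference depended on wild type B and C. Of the 44 members 39 were higher and 5 lower on the arrays labelled knockout, with a median difference of 0.36 and a range of -0.20 to 0.91, against a median of 0.02 over all genes, of which 53.2% were higher. Those lower include Cks2, whose difference rounds to 0. The limma test with Benjamini-Hochberg adjustment over all 12437 genes called 0 members at 0.05, with adjusted p-values from 0.902 to 1, where the share of all genes called was 0%. At an unadjusted p under 0.05, limma passed 1 member, Cdc25c, against 490 of all genes (3.94%). In no member did the 3 arrays labelled knockout separate from the 3 wild-type arrays, against 1127 of all genes (9.06%). Without wild type C the median difference was -0.04, with 19 members higher and 25 lower. Without wild type B it was 0.71, with 42 higher and 2 lower. On the signals as deposited all 44 members were higher with a median of 0.83, and after centring on array medians all 44 with a median of 0.60, but these scalings put the median of all genes at 0.43 and 0.20.

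What the members shared was their order over the arrays. Centred on each gene's own mean, the average of the 44 members was 0.44, 0.27 and -0.21 on the knockout-labelled arrays A, B and C and -0.09, 0.48 and -0.89 on wild type A, B and C. The SD of these averages was 0.34 over the arrays labelled knockout and 0.69 over wild type. Thus 39 of 44 members (88.6%) had their lowest value on wild type C, against 32.8% of all genes, and 26 had their highest on wild type B, where 19% of all genes did. The array labelled knockout A held the highest value of 11 members, knockout B of 5, and knockout C and wild type C of 1 each. The median member spanned 1.47 log2 units over the arrays, against 0.71 for the median gene. In a bulk sample, a lower share of dividing cells and less of these transcripts per dividing cell cannot be told apart.

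**Figure D2:**
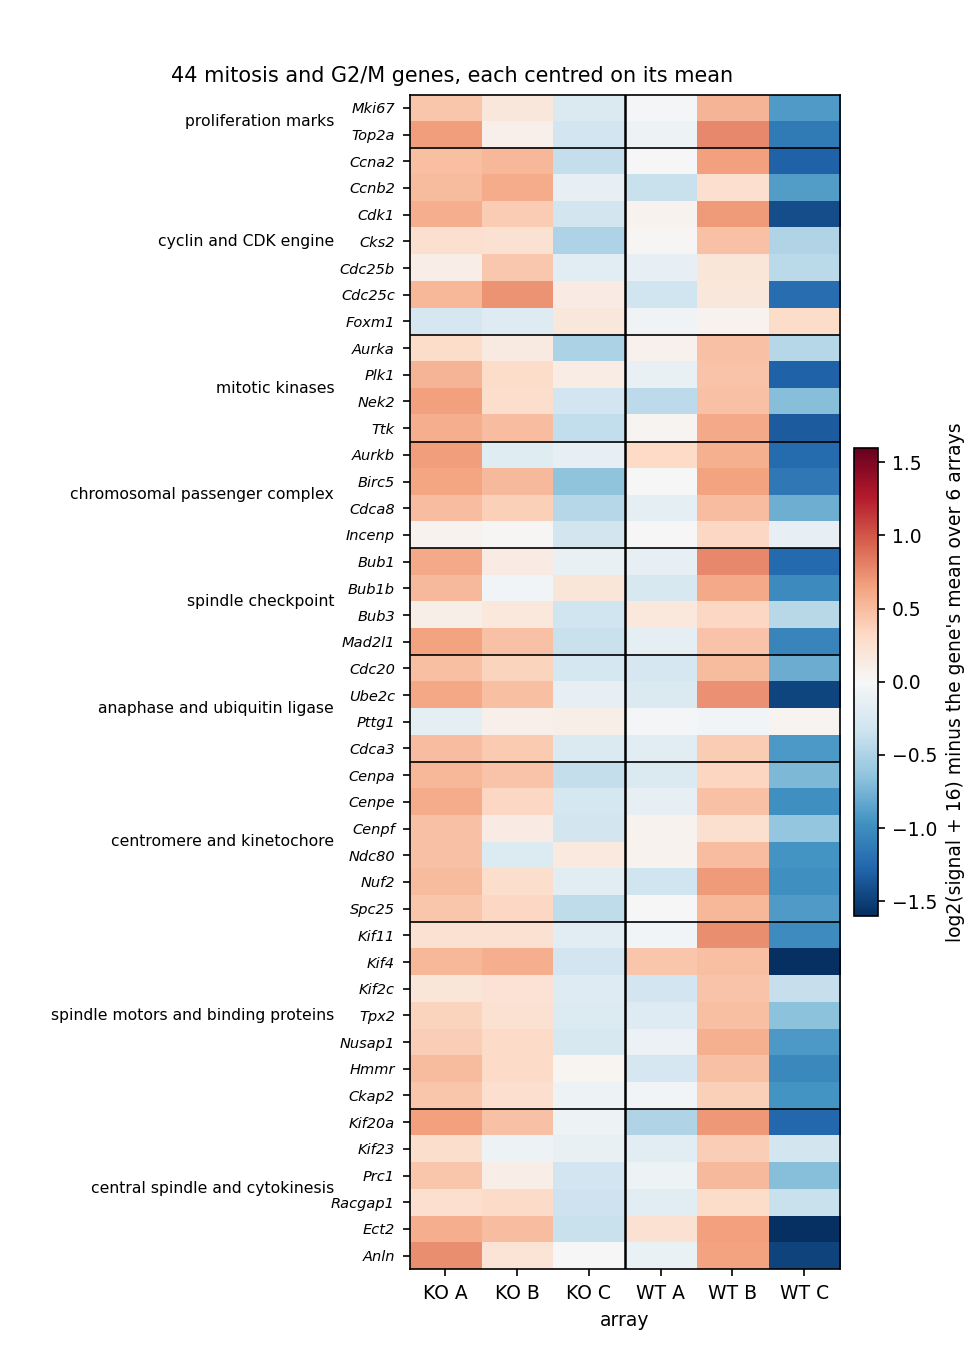
Each row is 1 of the 44 tested members, grouped by role, and each column 1 array (KO, labelled knockout; WT, wild type); colour is log2(signal + 16) minus the gene's mean over the 6 arrays, red above and blue below it. Of the 44 members 39 are lowest in the WT C column, and Foxm1 is the member that is highest there.

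The marks most used to count dividing cells showed the shared order. Mki67, which encodes the Ki-67 protein that coats mitotic chromosomes, read 10.88, 10.62 and 10.21 on the knockout-labelled arrays A, B and C and 10.42, 10.98 and 9.53 on wild type A, B and C. Its means were 10.57 ± 0.34 and 10.31 ± 0.73 (SD, n = 3 each), a difference of 0.26 (SE 0.35). Top2a, the topoisomerase that untangles sister chromatids, read 10.54, 9.96 and 9.57 on the arrays labelled knockout and 9.80, 10.64 and 8.74 on wild type, a difference of 0.30 (SE 0.45). For both genes wild type B was the highest array and wild type C the lowest, so the wild-type arrays spanned all of the arrays labelled knockout. Without wild type C the differences were -0.13 for Mki67 and -0.20 for Top2a.

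Among the cyclins and the Cdk1 engine, Cdc25c and Ccnb2 had the smallest p-values of all members. Cdc25c, the phosphatase that activates Cdk1, read 6.68, 6.87 and 6.28 on the arrays labelled knockout and 5.83, 6.33 and 4.93 on wild type. That is a 1.88-fold difference on the log2(signal + 16) scale, or 0.91 (SE 0.35; 1.24 with a pseudocount of 1 and 0.52 with 64), with an unadjusted limma p of 0.0327 and an adjusted p of 0.902. The groups overlapped in 1 place, since knockout C lay just below wild type B, and the difference without wild type C was 0.53. Ccnb2 read 9.70, 9.79 and 9.06 against 8.83, 9.46 and 8.30, a difference of 0.65 (SE 0.32), and 0.37 without wild type C. Here knockout A and B lay above every wild-type array and knockout C below wild type B.

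Cdk1 itself read 9.87, 9.69 and 8.99 on the arrays labelled knockout and 9.34, 9.96 and 7.86 on wild type, a difference of 0.47 (SE 0.49). Its partner Ccna2, the cyclin of S phase and G2, read 10.16, 10.21 and 9.30 against 9.67, 10.34 and 8.39, a difference of 0.42 (SE 0.47). Both were highest on wild type B and lowest on wild type C, and without wild type C the differences were -0.13 for Cdk1 and -0.12 for Ccna2. Cks2, a small Cdk-binding subunit, read 11.47, 11.46 and 10.72 against 11.23, 11.68 and 10.74, a difference of 0.00 (SE 0.28). On the signals as deposited its difference was 0.47, where the median of all genes was 0.43. Cdc25b, a phosphatase related to Cdc25c, differed by 0.25 (SE 0.24), and by 0.10 without wild type C. Foxm1, the transcription factor that activates many of the other members, did not follow their order by its brightest probe set. It read 7.28, 7.35 and 7.73 on the arrays labelled knockout and 7.49, 7.61 and 7.85 on wild type. It was highest on wild type C and lowest on knockout A, with a difference of -0.20 (SE 0.20) that turned to 0.26 on the signals as deposited, where the median of all genes was 0.43. The next probe set of Foxm1 was also lowest on knockout A (5.36) but highest on wild type B, at 6.23 against 5.83 on wild type C.

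**Figure D3:**
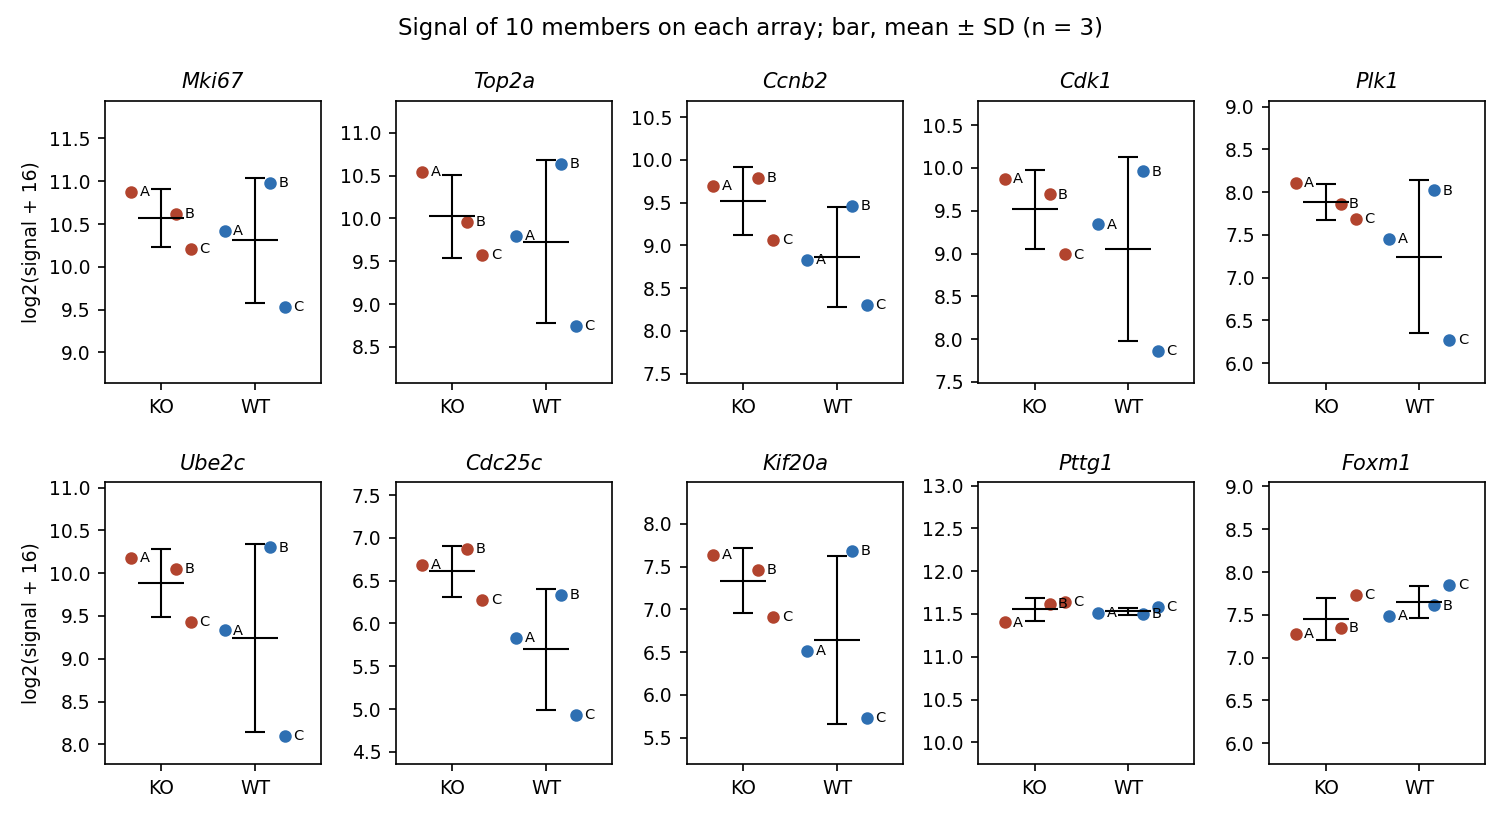
Points are the log2(signal + 16) of 10 members on each array, marked with the array's letter (red, labelled knockout; blue, wild type), and the bars are the mean ± SD (n = 3); the vertical axis spans the same number of log2 units in each panel but is placed at the gene's own level. In 8 panels wild type C is the lowest array, while Pttg1 spans 0.24 log2 units and Foxm1 is highest on wild type C.

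Of the 4 mitotic kinases 3 were higher on the arrays labelled knockout and none passed the test. Plk1, which acts in mitotic entry, spindle assembly and cytokinesis, read 8.11, 7.86 and 7.69 on the arrays labelled knockout and 7.45, 8.02 and 6.27 on wild type. The difference was 0.64 (SE 0.40), and 0.15 without wild type C. Nek2, which separates the centrosomes, read 8.98, 8.60 and 8.01 against 7.90, 8.79 and 7.64, a difference of 0.42 (SE 0.35), and 0.19 without wild type C. In both genes knockout A was high and wild type C low, and wild type B lay within the range of the arrays labelled knockout. Aurka, the spindle pole kinase, read 8.0, 7.85 and 7.20 against 7.78, 8.18 and 7.26, a difference of -0.06 (SE 0.30), and its lowest array was knockout C. On the signals as deposited its difference was 0.39, where the median of all genes was 0.43. Ttk, the checkpoint kinase also called Mps1, differed by 0.46 (SE 0.48), and by -0.09 without wild type C.

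The chromosomal passenger complex, which corrects faulty attachments of chromosomes to the spindle, showed the common order in 3 of its 4 subunits. Cdca8, which encodes borealin, read 10, 9.89 and 9.05 on the arrays labelled knockout and 9.36, 10 and 8.72 on wild type, a difference of 0.29 (SE 0.36) and -0.03 without wild type C. Incenp, the scaffold subunit, read 10.20, 10.16 and 9.84 against 10.15, 10.47 and 10.01, a difference of -0.14 (SE 0.18). On the signals as deposited its difference was 0.37, where the median of all genes was 0.43. Incenp was lowest on knockout C, not on wild type C. The kinase subunit Aurkb differed by 0.23 (SE 0.47), and Birc5, which encodes survivin, by 0.34 (SE 0.48), both lowest on wild type C. Without wild type C both turned, Aurkb to -0.33 and Birc5 to -0.15. Aurkb was also lower with array weights (-0.26), whose estimate did not converge and put most weight on wild type A.

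In the spindle checkpoint, which delays anaphase until all chromosomes are attached, Mad2l1 showed the largest difference of the 4 members. Mad2l1, the checkpoint protein that binds Cdc20, read 10.03, 9.85 and 9.02 on the arrays labelled knockout and 9.22, 9.84 and 8.33 on wild type, a difference of 0.50 (SE 0.40), and 0.10 without wild type C. Bub3 read 10.60, 10.68 and 10.19 against 10.67, 10.84 and 10.06, a difference of -0.03 (SE 0.23). On the signals as deposited its difference was 0.46, where the median of all genes was 0.43. The checkpoint kinase Bub1 differed by 0.41 (SE 0.46) and Bub1b, which encodes BubR1, by 0.45 (SE 0.38); without wild type C these were -0.10 and 0.05. All 4 were lowest on wild type C, Bub3 by a smaller margin than Mad2l1.

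The genes of anaphase and of the ubiquitin ligase that triggers it, grouped here with Cdca3, held both a strongly varying and a nearly constant member. Ube2c read 10.18, 10.05 and 9.43 on the arrays labelled knockout and 9.33, 10.30 and 8.10 on wild type, a span of 2.19 log2 units, with a difference of 0.65 (SE 0.49), which was 0.07 without wild type C and 1.17 without wild type B. Cdc20 read 10.80, 10.67 and 10.03 against 10.04, 10.82 and 9.52, a difference of 0.37 (SE 0.33), which was 0.07 without wild type C. Cdca3 read 9.83, 9.75 and 9.10 against 9.16, 9.74 and 8.41, a difference of 0.46 (SE 0.34), and 0.11 without wild type C. These 3 genes were lowest on wild type C. Pttg1, which encodes the separase inhibitor securin, read 11.40, 11.62 and 11.64 against 11.51, 11.50 and 11.58, a span of 0.24 and a difference of 0.02 (SE 0.12). Its brightest probe set carries a suffix that marks possible cross-hybridisation to related transcripts.

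All 6 centromere and kinetochore members, which link chromosomes to spindle fibres, were higher on the arrays labelled knockout, by 0.21 to 0.43, and all were lowest on wild type C. Cenpa, the histone variant that marks the centromere, read 9.31, 9.24 and 8.40 on the arrays labelled knockout and 8.55, 9.13 and 8.07 on wild type, a difference of 0.41 (SE 0.33), and 0.15 without wild type C. Spc25, a subunit of the Ndc80 complex, read 8.46, 8.35 and 7.62 against 8.03, 8.55 and 7.11, a difference of 0.24 (SE 0.38) that was -0.15 without wild type C. The other 4 were Cenpe (0.43), Nuf2 (0.42), Ndc80 (0.28) and Cenpf (0.21), and without wild type C they were 0.04, 0.03, -0.13 and -0.05.

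The 7 spindle motors and spindle-binding proteins were each higher on the arrays labelled knockout, by 0.14 to 0.55, and lowest on wild type C, without which the differences ran from -0.25 to 0.18. Hmmr read 9.0, 8.80 and 8.53 on the arrays labelled knockout and 8.23, 8.97 and 7.47 on wild type, a difference of 0.55 (SE 0.35), and 0.18 without wild type C. Nusap1, a microtubule-bundling protein, read 9.16, 9.08 and 8.52 against 8.68, 9.34 and 7.85, a difference of 0.30 (SE 0.36), and -0.09 without wild type C. Kif4, a chromosome-bound motor, had the largest span of all members, 2.31 log2 units, with a difference of 0.53 (SE 0.58) that was -0.20 without wild type C. With array weights, whose estimate did not converge, the difference of Kif4 was -0.06. The bipolar spindle motor Kif11 differed by 0.20, the microtubule depolymerase Kif2c by 0.14, the Aurora A activator Tpx2 by 0.25 and Ckap2 by 0.42. Without wild type C these were -0.25 for Kif11, 0.00 for Kif2c, -0.01 for Tpx2 and 0.04 for Ckap2.

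Of the 6 genes of the central spindle and cytokinesis, all 6 were higher, by 0.05 to 0.70, and lowest on wild type C. Kif20a, the motor that carries the passenger complex to the central spindle, read 7.64, 7.46 and 6.91 on the arrays labelled knockout and 6.51, 7.68 and 5.73 on wild type, a difference of 0.70 (SE 0.46), and 0.24 without wild type C. Ect2, the exchange factor that activates RhoA at the cleavage furrow, read 9.77, 9.68 and 8.83 against 9.43, 9.84 and 7.57, a difference of 0.48 (SE 0.55), and -0.21 without wild type C. Both were highest on wild type B. Kif23, a motor of the centralspindlin complex, read 8.75, 8.38 and 8.34 against 8.28, 8.86 and 8.17, a difference of 0.05 (SE 0.23), while its partner Racgap1 differed by 0.16 (SE 0.26). Anln, the furrow scaffold anillin, differed by 0.64 (SE 0.49), and Prc1, which bundles the central spindle, by 0.17 (SE 0.32). Without wild type C, Anln differed by 0.06, Prc1 by -0.13, Kif23 by -0.08 and Racgap1 by 0.02.

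Setting the arrays labelled knockout against each wild-type array in turn gave opposite answers. Their mean was above wild type A in 36 of 44 members, with a median of 0.25, and above wild type C in 42, with a median of 1.13. Against wild type B it was above in 3 members, with a median of -0.35. These comparisons share the arrays labelled knockout, and the median of all genes lay between -0.02 and 0.04 in them. The array labelled knockout C stood lowest of its group and differed from wild type A by a median of -0.14, with 16 members higher. Cdc25c, Ccnb2 and Pttg1 were the 3 members whose mean on the arrays labelled knockout was above wild type B, by 0.28, 0.06 and 0.06.

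**Figure D4:**
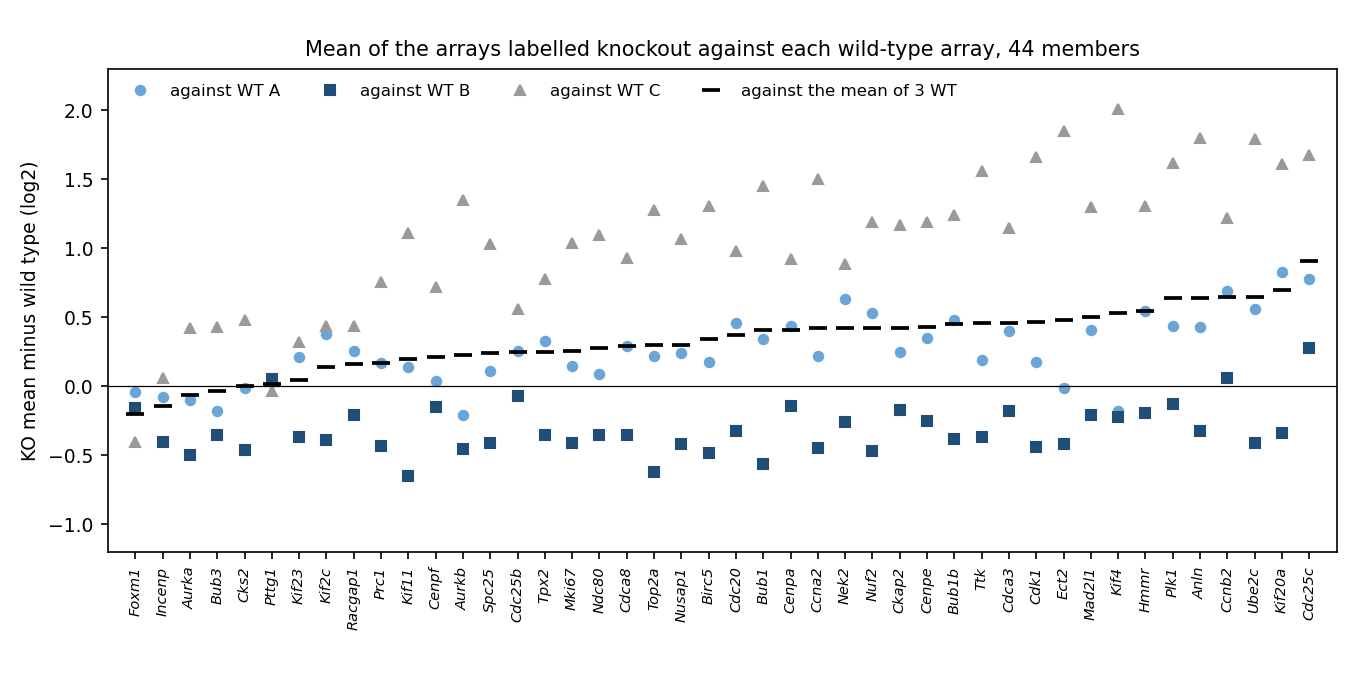
For each of the 44 members (horizontal axis, ordered by the difference), the mean of the 3 arrays labelled knockout minus wild type A (circles), wild type B (squares) and wild type C (triangles), and minus the mean of all 3 (bars), in log2 units (vertical axis). The squares lie below 0 for all but 3 members, and the median is 0.25 against wild type A, -0.35 against wild type B and 1.13 against wild type C.

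Cdc25c, Ccnb2, Kif20a and Nek2 were called by limma in 1 other setting, the one with array weights. The default estimate of those weights did not converge. It gave wild type A a weight of 33.5 against 0.195 to 1.39 for the rest, and limma then called 2722 of all genes (21.9%) and 10 of 44 members (22.7%), the others being Cdc20, Cenpa, Hmmr, Kif2c, Nuf2 and Ube2c. The share of members called lay near that of all genes. With weights estimated gene by gene, limma called 0 members. Leaving out wild type B gave a median difference of 0.71, and 15 of 44 members (34.1%) had an unadjusted limma p under 0.05, against 17.2% of all genes, while 0 members passed the adjusted threshold. Taking the Gapdh ratio as a covariate gave a median of -0.40 with 3 members higher. The ratio was above that of every array labelled knockout on each wild-type array, so this fit cannot separate the ratio from the label. By the Actb control ratio, not used as a covariate, the groups overlapped. It was 1.82 to 2.27 on the arrays labelled knockout and 2.24, 2.4 and 3.25 on wild type B, A and C. The part of RNA integrity in the low values on wild type C was not tested.

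A further probe set above the signal filter was present for 29 members. It gave the same direction as the brightest in 21, a median difference of 0.24, and the lowest value on wild type C in 18. The probe sets of 1 gene could differ: Kif23 read 0.05 by its brightest and 0.70 by the next, Cenpa 0.41 and -0.14, and Cdca3 0.46 and -0.02. Foxm1 was lower by both, -0.20 and -0.34, and for Cdc25c the values were 0.91 and 0.51. The chosen probe sets of 10 members carry suffixes that mark possible cross-hybridisation, those of Nek2, Cdca8, Bub1b, Bub3, Pttg1, Prc1, Aurkb, Incenp, Cdc20 and Kif2c.

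Other genes of the cell cycle followed the members over the arrays. Of 71 tested of 76 other mitotic genes 61 were higher and 10 lower on the arrays labelled knockout, with a median of 0.28, none called, and 55 (77.5%) were lowest on wild type C. Cdkn3, a phosphatase of Cdk1 and Cdk2, differed by 0.66 (SE 0.36), and Pkmyt1, an inhibitory kinase of Cdk1, by -0.45 (SE 0.20). Pkmyt1 was the 1 of these 71 whose groups did not overlap, against 9.06% of all genes. Of 30 tested of 32 S-phase genes, which act in DNA replication, 22 were higher, with a median of 0.10, and 27 (90%) were lowest on wild type C. Mcm2, a subunit of the replicative helicase, went the other way with -0.48 (SE 0.25), and was the 1 of these 30 whose groups did not overlap. The 16 regulators of G2/M genes, subunits of the MuvB, E2F and NF-Y complexes and their pocket proteins, had a median of 0.06, with 10 higher.

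Markers of position in the crypt and of other cells moved between the arrays too. Crypt base and transit-amplifying markers, 10 of 11 tested, had a median difference of 0.21, with averages of 0.36 on wild type B and -0.61 on wild type C after centring. They were not uniform, with 7 higher and 3 lower on the arrays labelled knockout. Ascl2 differed by 0.51 (SE 0.37), Lgr5 by -0.43 (SE 0.36) and Prom1 by -0.18 (SE 0.15). The summed signal of this list was 8140 to 9679 on the arrays labelled knockout and 8837 to 9872 on wild type. Of the surface colonocyte markers 9 of 10 were lower on the arrays labelled knockout, with a median of -0.09. On wild type C 6 of them were highest, and their centred average was 0.35 there against -0.44 on knockout A. Their summed signal was 61554 to 76146 on the arrays labelled knockout and 66640 to 85337 on wild type. Guca2a, which encodes guanylin, differed by -0.35 (SE 0.11), and Aqp8, a water channel, by -0.75 (SE 0.45). Guca2a was the 1 of these 10 whose groups did not overlap, against 9.06% of all genes. Epithelial markers, all 10 tested, had a median of 0.00 and summed signals of 57485 to 64273 and 58010 to 65489. Their defining genes Epcam, Cdh1 and Vil1 were all above the signal filter.

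Markers of non-epithelial cells were uneven over the arrays. T cell markers summed to 288 to 575 on the arrays labelled knockout and 321 to 1282 on wild type, with a median difference of -0.68 over the 5 tested. B cell markers, 3 of 7 tested, summed to 141 to 270 and 115 to 259, and germinal centre B cell markers, 3 of 6 tested, to 140 to 191 and 206 to 246. Macrophage and dendritic cell markers, 6 of 7 tested, summed to 1264 to 1548 and 1087 to 1545. Fibroblast markers, 5 of 6 tested, summed to 375 to 2086 and 998 to 1507, and were lowest on knockout A. Smooth muscle markers, 3 of 5 tested, summed to 244 to 492 and 138 to 270, and pancreatic acinar markers, 2 of 8 tested, to 53 to 73 and 54 to 293, the highest on wild type B. The part of these cell types in the members' signals was not tested.

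**Figure D5:**
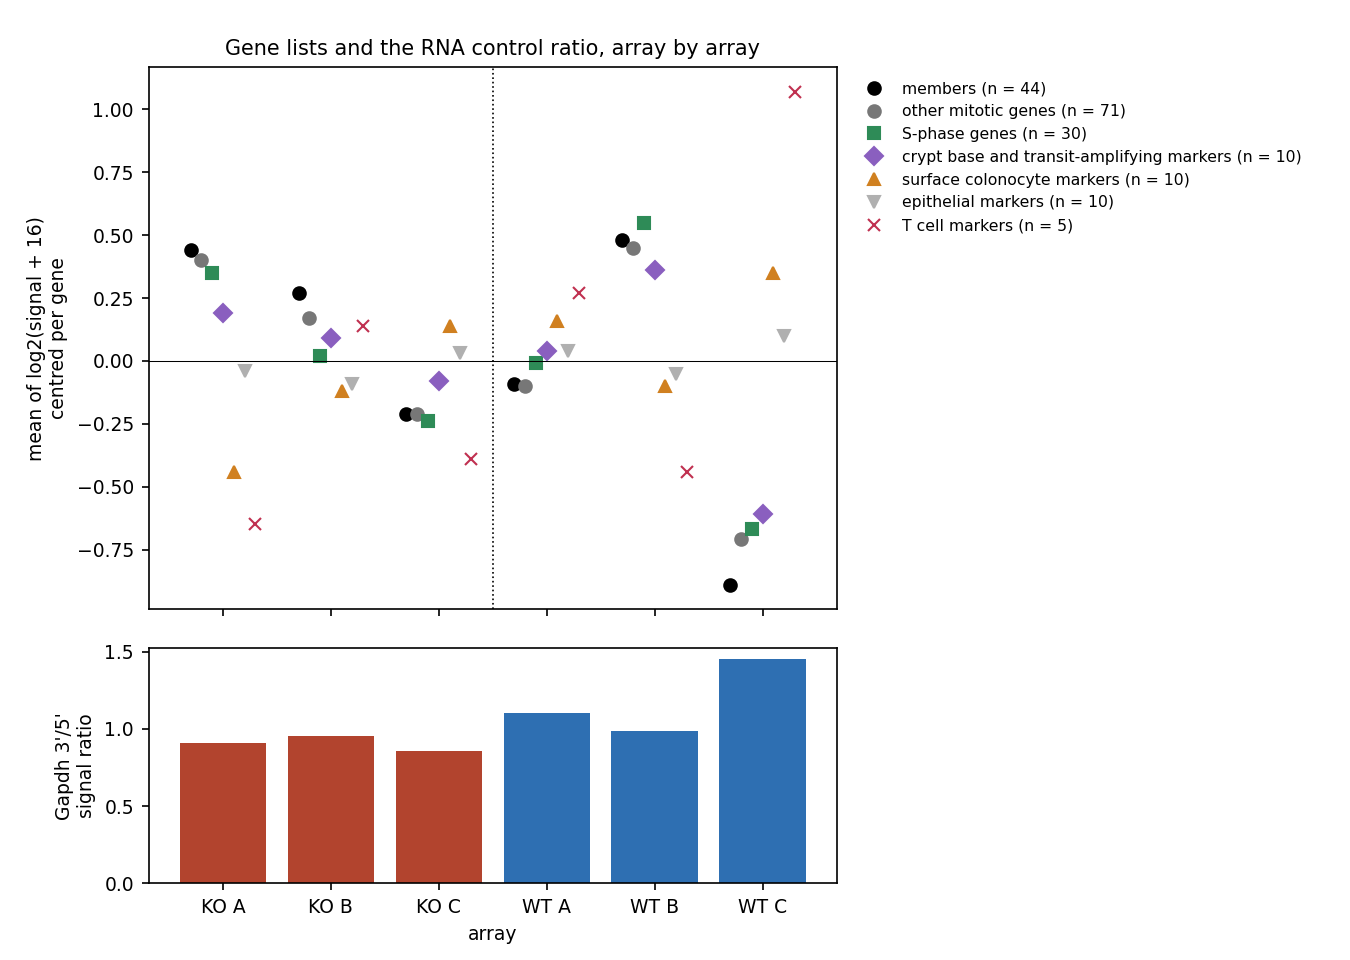
Top, average of log2(signal + 16) of each gene list on each array after centring every gene on its mean (KO, labelled knockout; WT, wild type; n, genes tested); bottom, the Gapdh control ratio, 3' over 5' signal, on the same arrays. On WT C the members average -0.89 and the T cell markers 1.07, and the Gapdh ratio is 1.45.

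The promoter letters were also counted by whether a member was lowest on wild type C. Of the 34 members with a promoter entry that were lowest on wild type C, 28 hold the homology region letters and 27 the NF-Y box letters. The 3 others with an entry are Cks2, Aurka and Pttg1, of which 1 holds the homology region letters, Aurka, and 2 the box letters, Aurka and Cks2. Aurka and Cks2 lay close to this split, at 7.20 and 10.72 on knockout C and 7.26 and 10.74 on wild type C. With so few members outside, the counts cannot show whether the letters differ by pattern. Birc5, Mad2l1, Nuf2 and Nusap1 hold neither motif and were lowest on wild type C. They spanned 1.79, 1.7, 1.66 and 1.49 log2 units. Among the 58 other mitotic genes with a promoter entry, 63.8% hold the homology region letters and 69% the box letters. Among 26 S-phase genes with an entry, 19.2% hold the homology region letters, close to the share of all genes, and 65.4% the box letters.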

How the data were processed

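Biotin-labelled RNA from 6 samples of mouse colonic mucosa was read on Affymetrix 3' arrays. The deposited table gives 1 linear intensity for each of 45101 probe sets and array, from MAS5, per the submitters' processing notes; its version, target and scaling were not given in the sources used here. Trimmed means differed between arrays, so signals were taken as log2(signal + 16) and quantile normalized. Probe sets whose mean was under the 40th percentile (about 18.4) were dropped, which left 27061. Symbols came from the platform annotation, in which 34945 probe sets have 1 symbol, 932 several and 9160 none here, and 64 control probe sets were left out. The brightest probe set of each gene was kept.

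The comparison used limma 3.58.1 in R 4.3.3, lmFit followed by eBayes with a variance trend (4 residual degrees of freedom, 4.19 from the prior), two-sided, with Benjamini-Hochberg adjustment at 0.05 over 12437 genes. The fit was tested on simulated data with changes of known size. The members and all lists were chosen with earlier results of these data known. Values by array are given for Mki67, Cdk1, Foxm1, the 2 brightest members of each role and the 6 members with the smallest unadjusted p; of other lists up to 3 genes with the smallest p could be named. Members and genes named outside this rule, among them Kif4, Ube2c, Anln and those with a difference alone, were taken to account for every member. Genes matched the RefSeq promoter table by symbol. Alternatives were other scalings, pseudocounts of 1 and 64, no filter or the 60th percentile, the mean of probe sets, other variance priors, weights on arrays, a block for the replicate letter, wild type B alone as control, the Gapdh ratio as a covariate and each array left out.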

Additional observations from a re-analysis of the deposited data

How the results depend on the processing

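The count of genes called by limma was 0 in the main setting, where 490 had an unadjusted p under 0.05. It was 1 on the signals as deposited, 1 after centring on array medians, 1 with a pseudocount of 64 and 1 with wild type B alone as control, 2722 with array weights and 7 with weights estimated gene by gene, a setting chosen after seeing the data. Leaving out each array gave 0 to 6. The called members were 10 with array weights and 0 in every other setting run. The members' median difference of 0.36 was -0.35 with wild type B alone as control and -0.40 with the Gapdh covariate, and -0.04 to 0.71 when each array was left out, the lowest without wild type C and the highest without wild type B. With the replicate letter as a replicate block limma called 3 genes and 0 members, and the median stayed at 0.36. In that fit 4 members had an unadjusted limma p under 0.05, as did 691 of all genes. Whether the letters pair the samples could not be told. The deviations of same-lettered arrays from their group means correlated at -0.04, -0.11 and 0.45, and knockout A correlated best with wild type B (0.51). Such deviations cancel within each group, so these correlations depend on each other and cannot decide it.

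Over all 44 members, 41 were lower with wild type B alone as control, 41 with the Gapdh covariate and 25 without wild type C. The cause was not tested. The changes of direction listed next are those of the 25 members given by array. Cks2 is listed among them, but its main difference rounds to 0 and so has no clear direction. On the signals as deposited Foxm1 was 0.26, Cks2 0.47, Aurka 0.39, Incenp 0.37 and Bub3 0.46, and after centring on medians 0.02, 0.24, 0.15, 0.13 and 0.22; these scalings moved the median of all genes to 0.43 and 0.20. With the mean of probe sets Cks2 was 0.12 and Bub3 0.08, and Cks2 was 0.08 with array weights and 0.05 with gene-by-gene weights. With wild type B alone as control the values were Mki67 -0.42, Cdk1 -0.44, Top2a -0.62, Ccna2 -0.46, Nek2 -0.26, Cdca8 -0.36, Mad2l1 -0.21, Cdc20 -0.32, Cenpa -0.14, Spc25 -0.41, Nusap1 -0.42, Hmmr -0.19, Ect2 -0.42, Kif23 -0.37, Plk1 -0.13, Kif20a -0.34 and Cdca3 -0.18. With the Gapdh covariate the same members were -0.53, -0.70, -0.74, -0.60, -0.08, -0.31, -0.25, -0.24, -0.06, -0.49, -0.47, -0.26, -0.81, -0.30, -0.38, -0.29 and -0.21. Leaving out each array gave ranges of -0.08 to 0.26 for Kif23, -0.02 to 0.10 for Pttg1, -0.24 to 0.25 for Cks2, -0.30 to 0.18 for Aurka, -0.26 to 0.13 for Bub3, -0.13 to 0.60 for Mki67, -0.13 to 0.92 for Cdk1, -0.20 to 0.75 for Top2a, -0.12 to 0.85 for Ccna2, -0.03 to 0.61 for Cdca8, -0.15 to 0.57 for Spc25, -0.09 to 0.66 for Nusap1 and -0.21 to 0.92 for Ect2. Of the other members, Aurkb was -0.26 and Kif4 -0.06 with array weights, Aurkb was -0.13 with gene-by-gene weights, and without knockout A Aurkb was -0.05 and Prc1 -0.01. Without wild type C, Aurkb, Birc5, Bub1, Cenpf, Kif11, Kif4, Ndc80, Prc1, Tpx2 and Ttk turned, to between -0.33 and -0.01. Kif2c turned as well, by an amount lost in rounding. Probe sets dimmer than about 18.4 were not tested, which limits what can be said of B cell, T cell and pancreatic markers.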
